A study of Homo sapiens with 26 samples.

Results

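Of 10740 genomic regions at which binding of the glucocorticoid receptor (GR) was measured, 859 (8%) gained GR signal when interleukin-1β (IL1B) was added to budesonide, and still showed a gain of at least 2-fold in cells infected with an inhibitor of NF-κB. They were chosen from the authors' deposited log2 binding intensities by 3 criteria. In control cells the intensity with budesonide was less than 1 log2 above that of untreated cells. In control cells the intensity with IL1B plus budesonide was at least 1 log2 above that with budesonide alone. The same difference was at least 1 log2 in the cells with the NF-κB inhibitor. The first pair of criteria was met by 4162 regions (38.8%), called gained regions here, and the 859 that also met the last one, called kept regions, were 20.6% of them. The other 3303 gained regions were not kept. Kept is the name of the rule and not of an equal level. On the deposited scale, nearly all of these regions had less GR signal with IL1B plus budesonide under the inhibitor than in control cells. The number of kept regions depends on how the groups are scaled to each other, and was between 50 and 604 under 4 other scalings.

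The measurements came from A549, an established human lung carcinoma line with alveolar epithelial features, labelled as wild type. Cells were infected with a control adenovirus that expresses a fluorescent protein (Ad-GFP), or with one that expresses the inhibitor IκBαΔN (Ad-IκBαΔN), so every group, untreated ones included, carried a virus. They were left untreated (NS), or were given 300 nM budesonide (Bud) or 1 ng/ml IL1B with 300 nM budesonide (I+B) for 1 h after overnight serum-free culture, and chromatin was precipitated with an antibody to GR. Each of the 6 groups had 2 libraries from independent experiments, the table holds 1 value per region and group, and GR signal with IL1B alone was not analysed here. No difference below therefore has a replicate check, and none carries a p-value, SD or n of samples. In a pool of cells, fewer cells with bound GR and less GR bound per cell cannot be told apart.

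GR is a nuclear receptor that enters the nucleus when it binds a glucocorticoid such as budesonide, and it recognises palindromic glucocorticoid response elements (GREs). NF-κB is a family of dimeric transcription factors, with RELA as a main activating subunit, which are held in the cytoplasm by IκBα until a signal such as IL1B leads to the breakdown of IκBα. IκBαΔN is a form of this inhibitor that is not degraded and so retains NF-κB, and GR can also be found at DNA where NF-κB, AP-1 or C/EBP factors bind rather than at a GRE of its own.

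The sequence of the kept regions was not used to choose them. The stretches that follow are examples, most of them picked for holding a motif match. Kept regions with none of the motifs marked here, 36.7% of the 859, are not printed. Each stretch is the central 150 bases of a region of 400 bp, with motif matches in capitals. It is read 5′ to 3′ on the plus strand of the human genome (hg38). In the first group the capitals mark matches to the κB consensus, the DNA motif of NF-κB. They were picked as the kept regions with the highest I+B signal in Ad-IκBαΔN among those linked to inflammatory, feedback or IL1 signalling genes, with a match within 50 bases of the centre and outside untranslated exons and repeated sequence. Overlapping matches run together. TNFAIP2 encodes a protein induced by tumour necrosis factor, IL1B the cytokine itself, RELB an NF-κB subunit, LIF a cytokine of the interleukin-6 family and PTGS2 the prostaglandin synthase COX-2. In the PTGS2 region the capitals also mark an AP-1 match, TGAGTCA.
TNFAIP2, chr14:103140378-103140527: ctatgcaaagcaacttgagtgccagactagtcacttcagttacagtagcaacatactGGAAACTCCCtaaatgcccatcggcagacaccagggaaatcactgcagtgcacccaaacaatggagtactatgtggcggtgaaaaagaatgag
IL1B, chr2:112814448-112814597: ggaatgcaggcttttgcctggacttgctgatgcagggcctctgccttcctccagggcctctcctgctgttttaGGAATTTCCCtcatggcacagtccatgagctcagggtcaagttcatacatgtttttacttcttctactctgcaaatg
RELB, intron, chr19:45016467-45016616: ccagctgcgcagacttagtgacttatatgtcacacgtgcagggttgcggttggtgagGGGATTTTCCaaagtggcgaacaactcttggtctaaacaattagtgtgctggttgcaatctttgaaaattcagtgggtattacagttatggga
LIF, chr22:30250878-30251027: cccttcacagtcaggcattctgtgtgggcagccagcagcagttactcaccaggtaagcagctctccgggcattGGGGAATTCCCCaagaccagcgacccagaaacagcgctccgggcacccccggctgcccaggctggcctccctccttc
PTGS2, chr1:186708881-186709030: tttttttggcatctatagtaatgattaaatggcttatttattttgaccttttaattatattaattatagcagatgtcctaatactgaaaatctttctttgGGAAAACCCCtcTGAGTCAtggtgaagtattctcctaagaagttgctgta

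The next pair had the largest I+B minus Bud difference in Ad-IκBαΔN of all kept regions linked to a gene. Their capitals mark κB matches and, in the OTOP1 region, an AP-1 match as well. ATOH7 encodes a transcription factor of retinal development and OTOP1 a proton channel.
ATOH7, chr10:68212924-68213073: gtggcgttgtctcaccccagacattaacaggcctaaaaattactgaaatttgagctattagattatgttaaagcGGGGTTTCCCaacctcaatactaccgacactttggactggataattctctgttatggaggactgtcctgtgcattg
OTOP1, chr4:4131004-4131153: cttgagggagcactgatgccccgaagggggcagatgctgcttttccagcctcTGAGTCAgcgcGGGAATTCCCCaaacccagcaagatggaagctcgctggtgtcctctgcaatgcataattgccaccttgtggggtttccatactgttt

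The pair below has a GRE match in place of a κB match, and is shown because these had the highest I+B signal in Ad-IκBαΔN among kept regions linked to a gene with a GRE within 50 bases of the centre. The longer run of capitals is the GRE and the shorter one, in the EIF2AK3 intron, is AP-1. EIF2AK3 encodes the endoplasmic reticulum stress kinase PERK.
FAM50B, chr6:3876271-3876420: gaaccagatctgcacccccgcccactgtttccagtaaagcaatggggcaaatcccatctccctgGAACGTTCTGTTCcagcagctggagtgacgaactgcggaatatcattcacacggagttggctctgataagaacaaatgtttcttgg
EIF2AK3, intron, chr2:88614040-88614189: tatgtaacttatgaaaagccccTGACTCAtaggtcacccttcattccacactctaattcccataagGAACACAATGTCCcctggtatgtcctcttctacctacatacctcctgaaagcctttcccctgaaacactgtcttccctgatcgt

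For contrast, the last pair was gained in Ad-GFP and not kept. It also has κB matches in capitals, with an AP-1 match in the IRAK2 intron. IRAK2 encodes a kinase of IL1 receptor signalling and CCL2 a monocyte chemokine.
IRAK2, intron, chr3:10192215-10192364: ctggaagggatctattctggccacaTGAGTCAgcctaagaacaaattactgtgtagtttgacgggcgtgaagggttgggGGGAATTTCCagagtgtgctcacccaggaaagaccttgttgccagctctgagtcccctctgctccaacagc
CCL2, chr17:34252575-34252724: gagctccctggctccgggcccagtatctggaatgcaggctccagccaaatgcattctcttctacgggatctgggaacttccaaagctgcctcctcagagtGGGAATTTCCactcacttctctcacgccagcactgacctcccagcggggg

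A κB match was found in 421 of the 859 kept regions, or 49.0% (95% Wilson interval 45.7 to 52.4%, counting error only). Among gained regions that were not kept the share was 44.1% (42.4 to 45.8%), and among all 10740 regions it was 21.3%. Windows of the same length 5 kb away held a match in 5.70% of kept regions and 3.90% of all regions. Of the 421 regions with a match, 351 had one within 50 bases of the centre, and 143 had 2 or more matches. The most frequent 10-base forms in kept regions were GGGAAATTCC and GGGAATTTCC, each in 62 regions, and GGGGAATTCC in 49. These forms were present in 7.22%, 7.22% and 5.70% of kept regions, against 6.72%, 6.60% and 4.03% of regions not kept. The regions whose gain passed 2-fold under the NF-κB inhibitor thus held the κB letters in a slightly larger share than the gained regions not kept, with intervals that met at 45.7 and 45.8%.

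**Figure D1:**
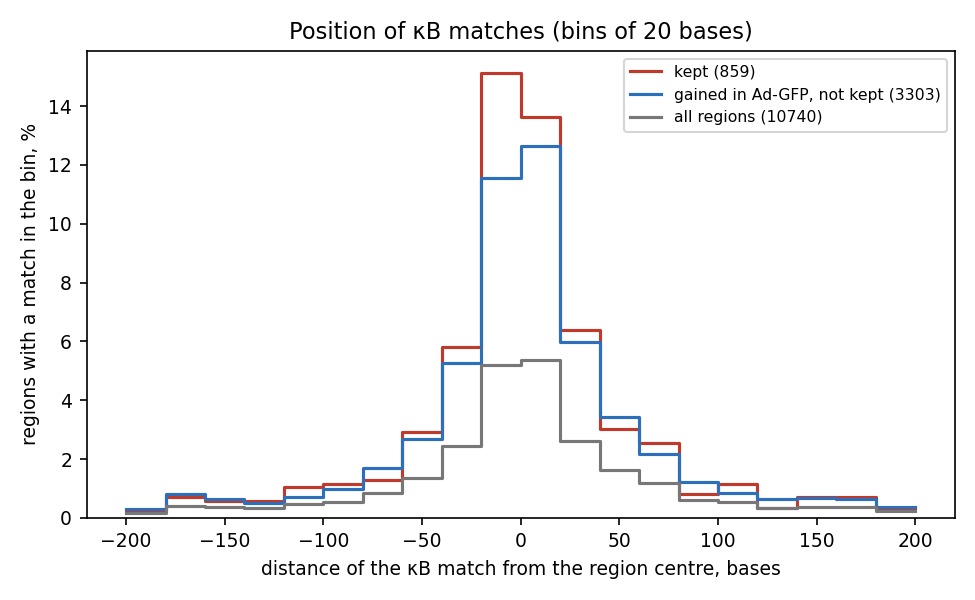
Position of κB matches relative to the centre of the region, in bins of 20 bases, as the percent of kept, not kept and all regions with a match in the bin. In kept regions the 2 bins around the centre held 15.1% and 13.6% of regions.

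The GRE was rare in kept regions. The palindrome, GAACA and TGTTC separated by 3 bases, with at most 1 mismatch in its 10 fixed bases on either strand, was found in 31 kept regions, or 3.61% (2.55 to 5.08%). It was found in 3.57% of gained regions not kept, in 12.8% of all regions, and in 1.63% of windows 5 kb from the kept ones. The half-site AGAACA, which can overlap a palindrome, was present in 29.2% of kept regions, 30.7% of those not kept and 41.8% of all regions. In windows 5 kb away it was present in 27.2% for kept regions. The GRE shares of kept and not kept gained regions thus lay close together, and both lay below the share of all regions.

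The AP-1 motif TGACTCA, bound by FOS and JUN dimers, was found on either strand in 185 kept regions, or 21.5% (18.9 to 24.4%), against 24.3% of those not kept and 22.8% of all. The C/EBP motif, TTGC and AA separated by 2 bases, was found in 29.1%, 29.8% and 29.3%, the forkhead motif TGTTTAC in 8.96%, 10.0% and 13.1%, and the TEAD motif GGAATG, whose letters can overlap a κB match, in 25.3%, 26.9% and 28.1%. None of κB, AP-1 and the GRE was found in 315 kept regions (36.7%), against 38.7% of those not kept. For these motifs the kept regions lay close to the gained regions that were not kept.

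**Figure D2:**
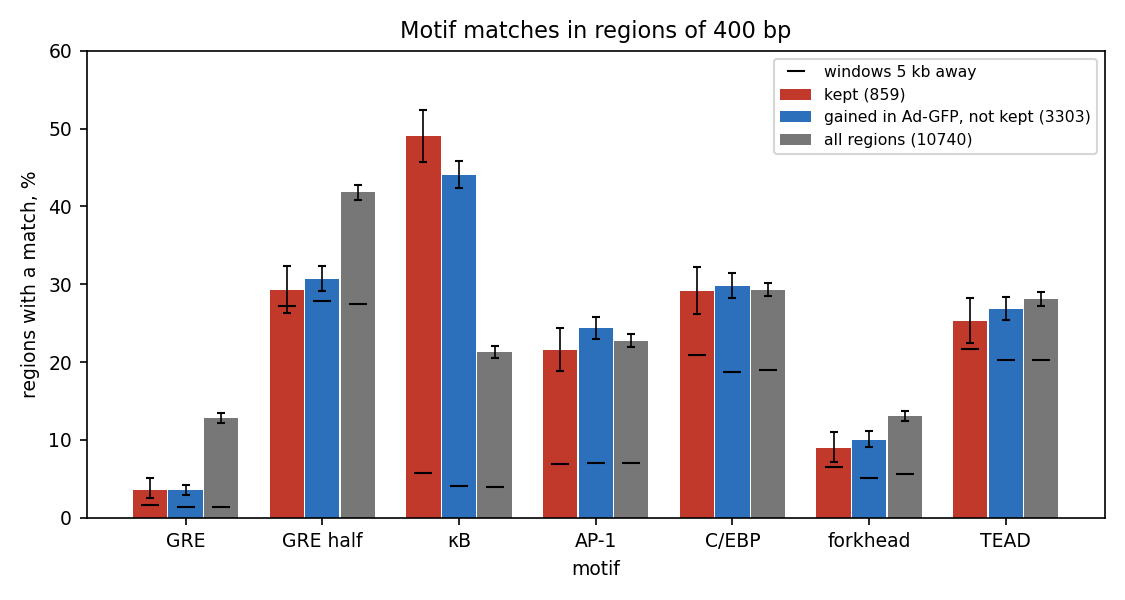
Percent of regions of 400 bp with at least 1 match to each of 7 motifs, for kept, not kept and all regions; bars carry Wilson 95% intervals and the black dashes give windows 5 kb away. The κB bar of the kept regions stands at 49.0% and that of all regions at 21.3%.

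Across treatments, the signal (2 raised to the deposited value, minus 1) of kept regions in Ad-GFP cells had a median of 7.63 in untreated cells, 4.16 with Bud and 53.9 with I+B. In Ad-IκBαΔN cells the medians were 7.71, 5.83 and 15.2. The gained regions not kept had medians of 8.14, 6.08 and 57.0 in control cells, then 7.82, 8.94 and 13.1 under the inhibitor. The signal with I+B under the inhibitor was thus close between the sets, with quartiles of 11.9 to 19.2 for kept regions and 10.0 to 17.5 for the others. The sets lay further apart with budesonide alone, where the quartiles were 4.40 to 7.83 and 6.78 to 12.2. All of these values except that of untreated Ad-IκBαΔN cells entered the choice of members and are given as description only.

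**Figure D3:**
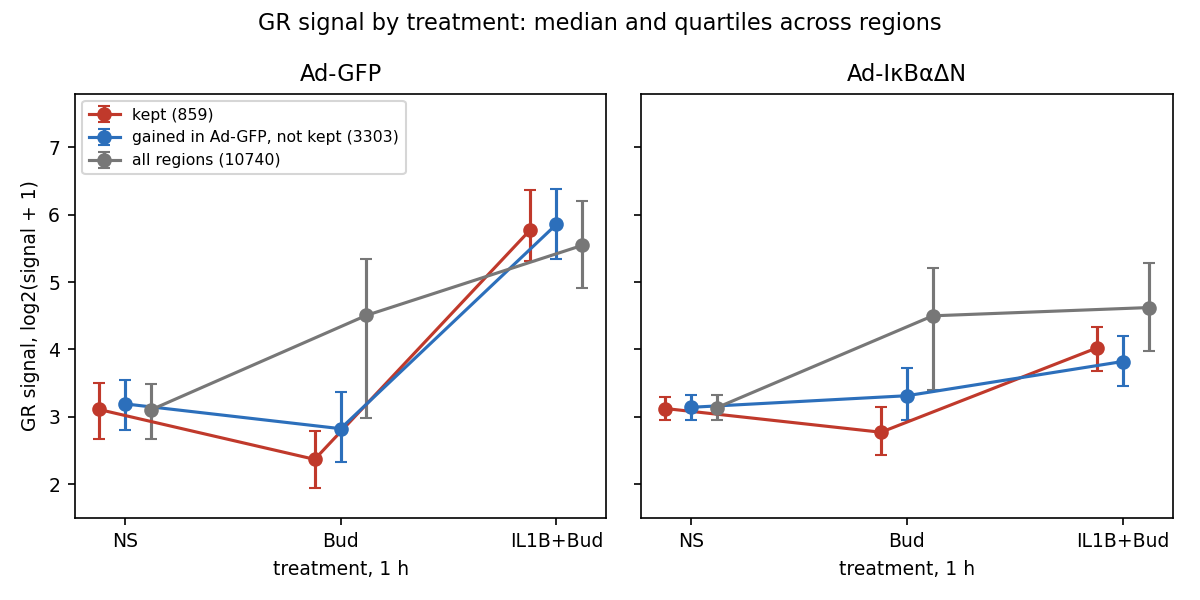
Median GR signal, log2(signal + 1), of kept, not kept and all regions in each treatment of the control virus (left panel) and the inhibitor virus (right panel); bars span the quartiles across regions and are not an error. With IL1B+Bud in Ad-IκBαΔN the medians of kept and not kept regions were 4.02 and 3.82, and with Bud 2.77 and 3.31.

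The gain that was kept was small beside the gain in control cells. The median I+B minus Bud difference of kept regions was 3.45 log2 in Ad-GFP, a 10.9-fold difference, with a range from 1.02 to 6.24. In Ad-IκBαΔN it was 1.17 log2, or 2.25-fold, with quartiles of 1.08 and 1.32 and a maximum of 2.27. The background for these criteria was 48.9% of all regions in control cells, 9.65% under the inhibitor, and since both were part of the rule nothing is read from the members' counts. Of the 859 members, 99 reached 1.5 log2 in Ad-IκBαΔN and 4 reached 2. Most members thus lay just above the threshold. The increase in signal in Ad-IκBαΔN was a median 18.1% of that in Ad-GFP (quartiles 11.8 and 26.4%), against 7.55% in gained regions not kept. These percentages were taken on the deposited scale only. Any difference in scale between the groups enters them, and they were not recomputed under the other scalings. Across the 859 members, the difference in Ad-IκBαΔN had a Pearson r of -0.35 with the Bud level in the same cells and 0.00 with the I+B level. It had an r of 0.10 with the difference in Ad-GFP, against 0.19 across gained regions not kept. These coefficients describe regions that share the same libraries and whose differences the rule limits in range, and the first of them relates a difference to 1 of its own terms.

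**Figure D4:**
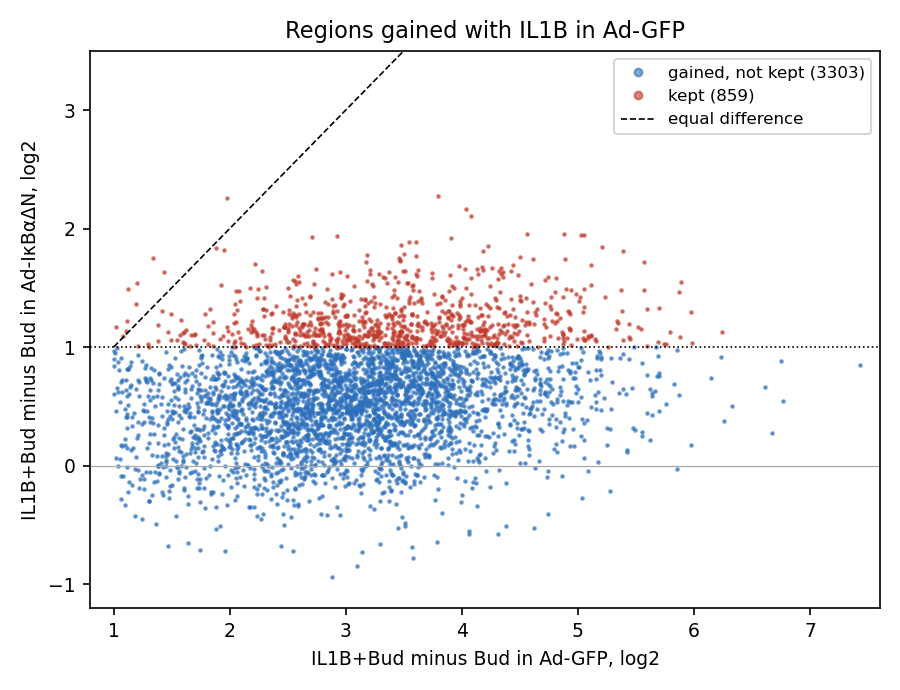
Difference between IL1B+Bud and Bud in log2 for each of the 4162 gained regions, in Ad-GFP (horizontal) and Ad-IκBαΔN (vertical); the dotted line is the threshold of 1 and the dashed line marks equal differences. The 859 kept regions sit between 1.00 and 2.27 on the vertical axis and all but 10 lie below the dashed line.

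With I+B, 846 of the 859 kept regions had less GR signal in Ad-IκBαΔN than in Ad-GFP. The difference was at least 1 log2 in 717 (83.5%), against a background of 46.5% of all regions and 91.6% of gained regions not kept, and its median was -1.79. This count depends on the scale. It was 375 when groups were re-centred on all regions and 384 when quantile normalized. Centring on the authors' unchanged class gave 583, and dividing out the steps of the deposited values gave 342. On the deposited scale the difference stayed within 1 log2 in 142 members (16.5%), against 8.39% of gained regions not kept and 47.5% of all regions. Those 142 had a median I+B signal of 30.5 in Ad-GFP, against 18.8 in Ad-IκBαΔN, and the 717 had 59.5 and 14.5. A κB match was present in 39.4% of the 142 and 50.9% of the 717, and a GRE in 7.75% and 2.79%. The 142 had the lower median in Ad-GFP and the higher one under the inhibitor. The split was made on these same I+B levels and largely sets this order, which is description only. The 13 members with more signal in Ad-IκBαΔN than in Ad-GFP, against a background of 27.6% of all regions, held no κB match.

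Untreated Ad-IκBαΔN cells were the 1 group that the rule did not use, though the Bud and I+B values set against it were used. Relative to that group, the I+B signal under the inhibitor was a median 0.91 log2 higher in kept regions, 0.69 in gained regions not kept and 1.48 in all regions. The difference was at least 1 log2 in 368 kept regions (42.8%), against a background of 69.1%, and in 29.1% of gained regions not kept. It was below 0 in 26 kept regions and at least 2 in 27. This comparison depends on the scale, and the median of kept regions was -0.57, -0.58 and -1.02 when groups were re-centred on all regions, quantile normalized or centred on the authors' unchanged class. These settings brought the median of all regions from 1.48 to -0.0042, -0.012 and -0.46. They thus give the place of kept regions relative to other regions, and not a change from untreated cells. In 633 kept regions (73.7%) the signal of Ad-IκBαΔN cells was lower with Bud than without treatment, against a background of 17.1% and 35.8% of gained regions not kept, and the median difference was -0.31. In 541 (63.0%) Bud lay below NS in both viruses, against 29.6% of gained regions not kept and 14.1% of all. The rule also used NS and Bud of Ad-GFP and favours low Bud values in both viruses. These shares are therefore description only. For 491 of the 859 members, then, the 2-fold gain over budesonide was less than a 2-fold gain over untreated cells. Bud minus NS reached 1 in Ad-IκBαΔN in 14 kept regions (1.63%), against 9.20% of gained regions not kept, which met the same limit on this difference in Ad-GFP, and a background of 59.3%. Untreated levels hardly differed between viruses at the median (-0.01 log2), with 60 members at least 1 log2 higher in Ad-IκBαΔN (6.98%, background 7.21%) and 24 lower (2.79%, background 2.77%). With Bud the median difference between viruses was 0.38, with 83 members (9.66%) at least 1 log2 higher in Ad-IκBαΔN (background 4.02%). Gained regions not kept had a median of 0.47 and a share of 10.5%, so this was shared by both sets. Both sets also passed the same criteria on Bud in Ad-GFP, which favour low values there, so this difference is description only.

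The authors' deposited classes placed 662 kept regions (77.1%) in the increasing class, 136 (15.8%) in the unchanged class and 61 in the decreasing class. For gained regions not kept the shares were 81.0%, 15.2% and 3.84%, and for all regions 40.5%, 31.8% and 27.8%. The sources used here do not say how the classes were set. The 61 kept regions of the decreasing class had a median signal of 38.1 with I+B in Ad-GFP, 15.6 in Ad-IκBαΔN, and 59.0% of them had a κB match. Kept regions of the increasing class had medians of 59.5 and 15.0, so the classes differed more in Ad-GFP than under the inhibitor.

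Placed by their midpoint, 413 kept regions (48.1%) lay in introns of protein-coding genes, against 48.7% of all regions. Outside protein-coding genes lay 420 (48.9%, against 48.0%). The midpoint of 17 (1.98%, against 2.39%) lay in untranslated exon and that of 9 (1.05%, against 0.931%) in coding exon. Each region was tied to a protein-coding gene through its closest transcription start site (TSS), if that was within 100 kb, which says nothing of whether it regulates that gene. This linked 616 kept regions to 586 genes, 30 of them with 2 members. Within 1 kb of a TSS lay 52 members (6.05%), against 5.27% of gained regions not kept and 3.76% of all. These 52 had a median I+B signal of 19.3 in Ad-IκBαΔN, against 15.0 for the members farther away, and I+B minus NS of 1.34 against 0.90. A κB match was present in 57.7% of them and a GRE in 0 of 52. Members near a TSS thus stood higher over untreated cells than the rest, by values to which no test was applied. Another region of the table lay within 10 kb of 244 kept regions (28.4%), against 34.7% of all regions, and another member within 10 kb of 34.

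In all, 7 lists of genes were followed, chosen with earlier results of these data known. For NF-κB-dependent inflammatory genes, 17 of 79 gained regions were kept (21.5%), at 14 genes, close to the 20.6% of all gained regions. For feedback genes or genes shared with the glucocorticoid response the count was 4 of 43 (9.30%), for glucocorticoid-induced genes 7 of 31 (22.6%), and for AP-1 and immediate early genes 3 of 22 (13.6%). It was 3 of 12 (25%) for MAP kinase and IL1 receptor signalling, 5 of 14 (35.7%) for lung epithelial genes, and 0 of 2 for housekeeping genes. With such small numbers no list is called different from the rest. The regions of listed genes described below are called kept on the deposited scale. For each listed gene, its kept region with the highest I+B signal in Ad-IκBαΔN was also followed under other scalings. Under quantile normalization, I+B minus Bud in Ad-IκBαΔN was below 1 log2 at all of these regions except that of CD44. The same held with the steps of the deposited values divided out. In these settings CD44 had 1.33 and 1.34, CXCL8 0.64 and 0.75, and CCL20 0.58 and 0.61.

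CXCL8 encodes the neutrophil chemokine interleukin-8. Its kept region 5.76 kb upstream (chr4:73734561-73734960) had a signal of 2.56 untreated, 4.03 with Bud and 315 with I+B in Ad-GFP. In Ad-IκBαΔN it had 9.52, 5.55 and 15.1, so the I+B minus Bud difference was 5.98 log2 in Ad-GFP, against 1.30 under the inhibitor, where I+B stood 0.61 above untreated cells. Of the 4 other gained regions linked to CXCL8, none was kept. The one with the next highest I+B signal in Ad-GFP (chr4:73776158-73776557) stood at 15.3 with Bud and 13.8 with I+B in Ad-IκBαΔN, and the one at chr4:73682599-73682998 at 5.75 and 3.32.

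CCL20 encodes a chemokine for CCR6-bearing lymphocytes and dendritic cells. Its kept region (chr2:227813547-227813946, intron) had 9.72, 7.94 and 415 in Ad-GFP for NS, Bud and I+B, and 6.44, 7.34 and 17.5 in Ad-IκBαΔN. This was the lowest I+B difference between viruses among the 859 members, -4.49 log2. The other gained region of CCL20 (chr2:227796257-227796656) had 18.9 with Bud and 19.0 with I+B in Ad-IκBαΔN. The I+B signals of the pair under the inhibitor were thus close, and their Bud signals were not.

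CCL2 had 1 kept and 3 other gained regions. The kept one (chr17:34238760-34239159) had 11.2, 2.64 and 53.6 in Ad-GFP, against 8.89, 7.17 and 18.8 in Ad-IκBαΔN. The CCL2 region whose sequence is printed above (chr17:34252450-34252849) had 387 with I+B in Ad-GFP, and 31.1 with Bud and 32.3 with I+B in Ad-IκBαΔN, a difference of 0.05 log2. The region not kept thus had the higher I+B signal under the inhibitor.

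TNFAIP2 had 2 kept regions. The one 12.46 kb upstream, in an intron of EXOC3L4 (chr14:103108819-103109218), had 5.62, 4.24 and 305 in Ad-GFP, against 4.78, 8.24 and 24.4 in Ad-IκBαΔN, where I+B stood 2.14 log2 above untreated cells. The one 18.98 kb downstream of the TSS had 15.2, 4.41 and 47.6 in Ad-GFP, against 8.31, 5.88 and 17.3 in Ad-IκBαΔN. The 3 other gained regions of the gene had between 0.38 and 0.83 log2 under the inhibitor. LIF also had 2 kept regions, at which I+B under the inhibitor gave 19.4 (chr22:30228585-30228984) and 12.8 (chr22:30250753-30251152), with Bud at 6.28 and 4.66. CSF1, a macrophage growth factor, had 2 as well, with I+B at 18.2 (chr1:109910593-109910992, 0.55 kb into the gene) and 9.40 (chr1:109892493-109892892). The second of these held 4 κB matches and the first none.

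Of the remaining inflammatory genes, the kept region of CD44, a hyaluronan receptor (chr11:35186454-35186853, intron), had the largest difference under the inhibitor, 1.89 log2. Its signal was 6.20, 3.34 and 51.9 in Ad-GFP, against 8.88, 4.37 and 18.9 in Ad-IκBαΔN, and it held no κB match. The regions of IL1A, IL1B, RELB, PTGS2, TNFAIP6, IRF1 and IL32 had differences from 1.05 (IRF1) to 1.41 (IL1B) and I+B signals from 10.7 (IRF1) to 23.5 (IL32) under the inhibitor. At IL1B (chr2:112814323-112814722) Ad-IκBαΔN cells had 9.28 untreated, 5.22 with Bud and 15.5 with I+B, and Ad-GFP cells had 6.60, 5.14 and 29.2. At the TSS of IL32, a cytokine (chr16:3065121-3065520), they had 17.1, 10.3 and 23.5, and Ad-GFP cells had 22.5, 17.4 and 147. At IL1A, IL1B, RELB, PTGS2, TNFAIP6 and IL32 the Bud signal under the inhibitor lay below the untreated one.

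**Figure D5:**
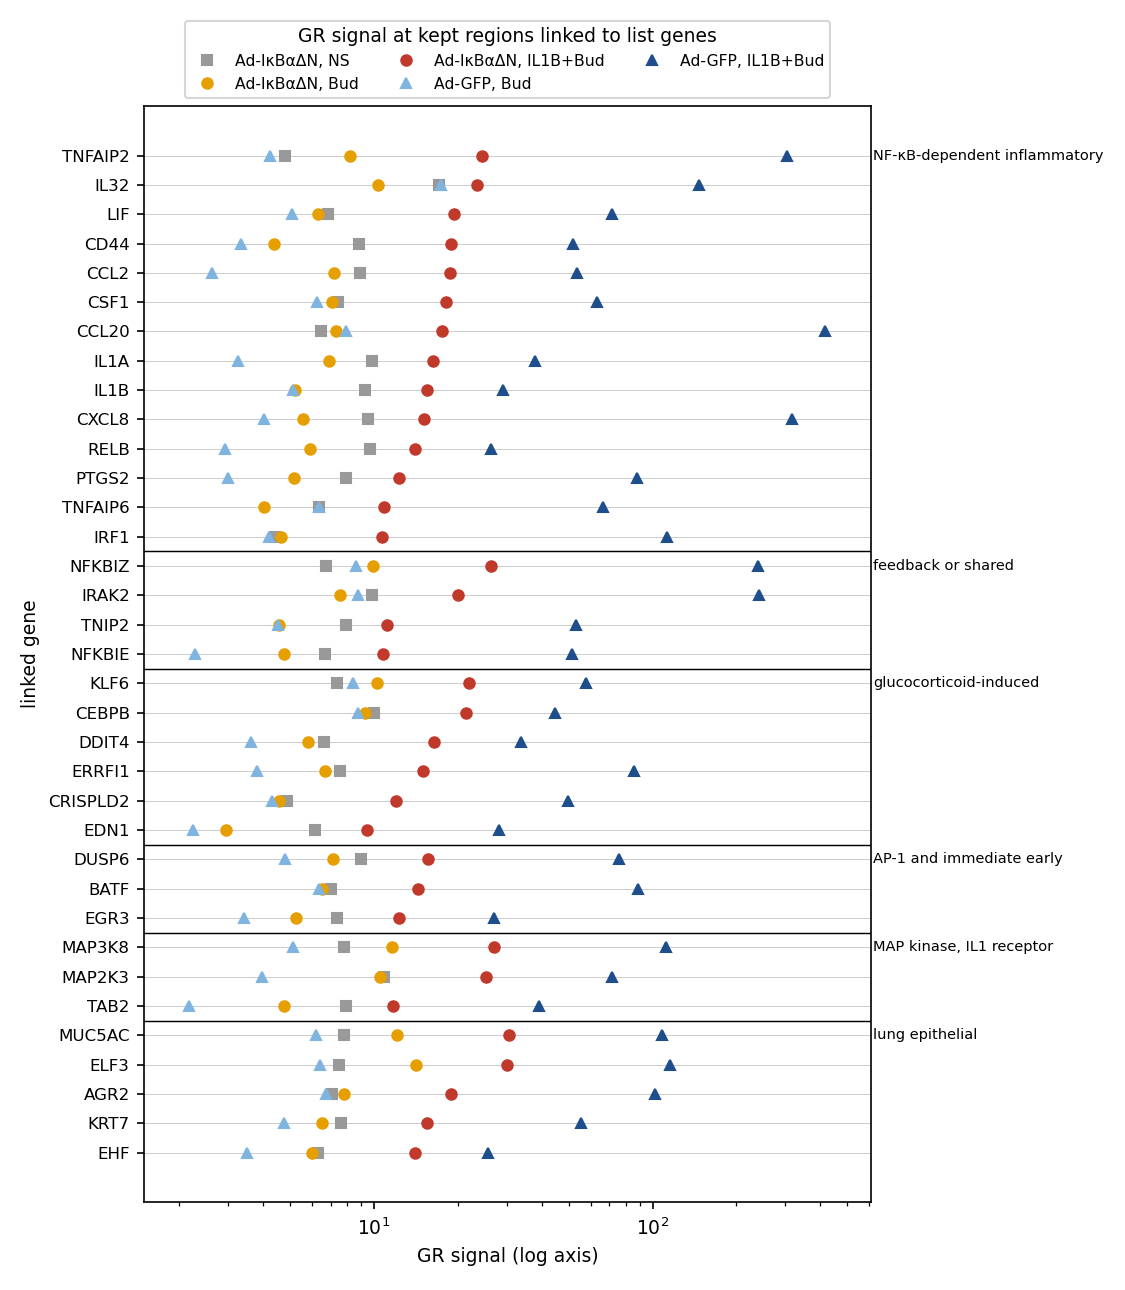
GR signal on a log axis at the kept region of each listed gene, grouped by list, in the 3 Ad-IκBαΔN groups and in Ad-GFP with Bud and IL1B+Bud (untreated Ad-GFP is not drawn). At CXCL8 the IL1B+Bud signal is 315 in Ad-GFP, against 15.1 in Ad-IκBαΔN, and at MUC5AC 108 and 30.4.

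Among feedback genes, NFKBIZ encodes IκBζ, an inducible nuclear regulator of NF-κB target genes. Its kept region in untranslated exon (chr3:101849168-101849567) had 13.0, 8.61 and 239 in Ad-GFP, against 6.75, 9.96 and 26.3 in Ad-IκBαΔN. A second NFKBIZ region 0.23 kb upstream of the TSS (chr3:101827558-101827957) had 10.2 with Bud and 21.4 with I+B under the inhibitor and was the closest to the threshold of all gained regions not kept, with a difference that is 1.00 when rounded and lies just under the threshold. The kept region of IRAK2 (chr3:10173983-10174382, intron) had 11.2, 8.78 and 242 in Ad-GFP, against 9.86, 7.58 and 20.1 in Ad-IκBαΔN. The IRAK2 region printed above, which was not kept, had 571 with I+B in Ad-GFP, and 16.6 with Bud and 28.7 with I+B in Ad-IκBαΔN, a difference of 0.76. TNIP2, an A20-binding inhibitor of NF-κB, and NFKBIE, which encodes IκBε, had kept introns with differences of 1.12 and 1.03 under the inhibitor and I+B signals of 11.1 and 10.7.

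Kept regions of glucocorticoid-induced genes had modest I+B signals under the inhibitor, from 9.43 at EDN1, the gene of the vasoconstrictor endothelin-1, to 22.0 at KLF6, a zinc-finger transcription factor. KLF6 had 2 members, with differences of 1.34 (chr10:3757979-3758378) and 1.03 (chr10:3766261-3766660) in Ad-IκBαΔN. CEBPB encodes a C/EBP transcription factor. Its kept region (chr20:50224802-50225201) held both a GRE and an AP-1 match, and had 11.9, 8.76 and 44.6 in Ad-GFP, against 9.99, 9.28 and 21.4 in Ad-IκBαΔN. ERRFI1, a feedback inhibitor of EGF receptor kinases, DDIT4, an inhibitor of mTORC1, and CRISPLD2 had differences of 1.06, 1.36 and 1.22. The largest difference in the group was 1.40, at EDN1.

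In signalling and transcription factor genes, the kept region at the TSS of MAP3K8, a kinase upstream of ERK (chr10:30433803-30434202), had 8.86, 5.14 and 112 in Ad-GFP, against 7.81, 11.6 and 27.0 in Ad-IκBαΔN, with 1 κB and 1 AP-1 match. MAP2K3, a kinase upstream of p38, had 10.5 with Bud and 25.4 with I+B under the inhibitor, and TAB2, an adaptor of the kinase TAK1, 4.75 and 11.7. DUSP6, an ERK phosphatase, BATF and EGR3 had differences of 1.04, 1.03 and 1.09, and the BATF intron held 4 κB matches. Of the epithelial genes, MUC5AC, a gel-forming airway mucin (chr11:1152295-1152694), had 7.63, 6.20 and 108 in Ad-GFP, against 7.79, 12.1 and 30.4 in Ad-IκBαΔN. ELF3, an epithelial ETS factor (chr1:202010331-202010730), had 10.2, 6.42 and 116 and then 7.52, 14.2 and 30.0. AGR2, KRT7 and EHF had I+B signals of 18.9, 15.5 and 14.0 under the inhibitor. On the deposited scale, MUC5AC, ELF3 and MAP3K8 thus combined a high I+B signal under the inhibitor with a Bud signal above that of untreated Ad-IκBαΔN cells. When groups were centred on the authors' unchanged class, Bud lay below untreated Ad-IκBαΔN cells in all 859 members, a place relative to that class.

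The 10 members with the highest I+B signal in Ad-IκBαΔN were of another kind. Only 1 of them had a κB match and 2 had a GRE. The highest was a region at the tip of chromosome 5 (chr5:11492-11891, linked to PLEKHG4B at 80.5 kb), with 278, 157 and 411 in Ad-GFP, against 282, 181 and 378 in Ad-IκBαΔN. The next (chr18:80262941-80263340, linked to PARD6G) had 92.3, 101 and 281 and then 127, 118 and 259. Both were high in every group, untreated cells included, and all 3 of the 32-base words read from each occur more than once in hg38. A region linked to MED9 (chr17:17408409-17408808) had 7.98, 13.9 and 39.3 in Ad-GFP, against 8.12, 23.3 and 74.2 in Ad-IκBαΔN. The MED9 region had more signal with I+B under the inhibitor than in control cells. Those linked to or nearest MFAP2, CD46, AUTS2, YWHAZ, SMARCD2 and FAM50B, had I+B signals from 47.7 to 66.9. On the deposited scale, Bud already lay above untreated cells in both viruses in 8 of the 10. In 541 of the 859 members it lay below them in both. With the steps of the deposited values divided out, I+B minus Bud in Ad-GFP was below 0 at the regions of PLEKHG4B, PARD6G, MED9, MFAP2 and FAM50B, from -0.25 to -0.0786.

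More widely, 44 kept regions had an I+B signal of at least 30 in Ad-IκBαΔN. They had medians of 8.70 untreated, 17.0 with Bud and 38.5 with I+B under the inhibitor, and 63.0 with I+B in Ad-GFP. A κB match was present in 13 of them (29.5%) and a GRE in 7 (15.9%). At FAM50B (chr6:3876146-3876545), whose GRE is printed above, the signal was 9.22, 17.0 and 47.0 in Ad-GFP, against 5.94, 18.7 and 47.7 in Ad-IκBαΔN, nearly the same in both viruses. At EIF2AK3 (chr2:88613915-88614314) it was 13.4, 20.9 and 81.6 and then 7.36, 21.7 and 46.5. The lowest I+B signal of any member under the inhibitor was 5.14.

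The 10 members with the largest I+B minus Bud difference in Ad-IκBαΔN had 1.93 to 2.27 log2, and 8 of them had a κB match. Among the 99 members of at least 1.5 log2 the share with a match was 48.5%, near the 49.0% of all members. The largest was at a region on chromosome 4 whose nearest gene, CPEB2, lies farther than 100 kb away (chr4:14856372-14856771). It had 3.89, 3.89 and 66.7 in Ad-GFP, against 8.69 untreated, 2.12 with Bud and 14.1 with I+B in Ad-IκBαΔN. Those nearest SALL1, ATOH7 and OTOP1 had 2.26, 2.16 and 2.11. ATOH7 had 8.68, 3.80 and 20.5 under the inhibitor, and OTOP1 had 5.52 untreated and 13.7 with I+B. In all 10 the Bud signal in Ad-IκBαΔN ran from 1.39 (ARSJ) to 3.90 (RGS3) and lay below that of untreated cells, so each of these differences stood on a Bud value lower than the untreated one.

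Regions just inside and just outside the thresholds had nearly the same values. By the difference in Ad-IκBαΔN, the last members were nearest NEDD9, NHSL2 and GJE1, all at 1.00. The first regions outside were nearest NFKBIZ, ERCC4 and RBBP8. By Bud minus NS in Ad-GFP, the members nearest WRAP73, NR4A2 and SOX9 had 0.99, 0.99 and 0.98. Those nearest TANC2, MAGEB2 and AKR1C1 lay outside at 1.02, 1.03 and 1.04. By the difference in Ad-GFP, the members nearest IL18RAP, TRMT12 and ALDH3B2 had 1.02, 1.08 and 1.10. Those nearest PRDM14, PPP4R2 and NBPF20 lay outside at 0.99, 0.94 and 0.94. These last criteria alone excluded 29 and 23 regions. Of the genes named here, GJE1, RBBP8, SOX9, MAGEB2 and PRDM14 lay farther than 100 kb from their region, which was not linked to them.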

How the data were processed

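GR chromatin immunoprecipitation with sequencing was described for 12 libraries in 6 groups of 2, while the 12 RELA libraries and the 2 of input chromatin are not analysed here. The authors' deposited table gives GR binding intensity in log2 at 10740 regions of 400 bp, as 1 value for each group, and names the virus Ad-IκBα where the labels have Ad-IκBαΔN. Per the submitters' processing notes, the tools were DiffBind 3.2, MACS2 2.2.7.1, Bowtie2 2.4.4, FastQC 0.10.1, bcl2fastq and SAMtools, with hg38 as the genome. The step that gave the intensities, the merging of libraries and the scaling are not given in the sources, and library depth is unknown.

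Signal was taken as 2 to the power of the deposited value, minus 1. Multiplied by 400, it fell on whole multiples of a step, within 0.001 steps, of 1 in untreated (10739 of 10740 regions) and Bud Ad-GFP cells and in Bud Ad-IκBαΔN cells, of 3 in Ad-GFP with I+B and of 1.5 in Ad-IκBαΔN with I+B. Untreated Ad-IκBαΔN cells showed no such step. The groups may thus be on different scales, and dividing the steps out moves the differences of regions by unequal amounts, since 1 is added before the log. Folds are on the log2(signal + 1) scale and understate differences at low signal.

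The planned linear models needed a value per library, so differences are given without tests. Members, lists, motifs and comparisons were chosen with earlier results of these data known. Named regions were the 10 members with the highest I+B signal and the 10 with the largest I+B minus Bud difference in Ad-IκBαΔN, those next to each threshold, and for each listed gene its member with the highest I+B signal there. Other gained regions of those genes, second members, the 44 members of at least 30 signal and the printed regions were described after their values were seen. Of the regions so named, 1 is not reported here. Genes came from GENCODE 44 and sequences from hg38. A region was called repeated sequence when 3 words of 32 bases read from it all recurred in hg38. Shares carry Wilson 95% intervals, which cover counting error over regions that are not replicates. The counting was tested on simulated data. Python 3.11.15, numpy 2.4.6, pandas 2.3.3, scipy 1.17.1, pysam 0.24.0, numba 0.67.0 and matplotlib 3.10.9 were used. Alternatives were other scalings, pseudocounts, thresholds, filters and motif mismatches.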

Additional observations from a re-analysis of the deposited data

How the results depend on the processing

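How many regions count as kept depends strongly on scale and threshold. Against 859 on the deposited scale there were 508 when groups were re-centred on the median of all regions, 50 under quantile normalization, 81 with the steps divided out, 172 on log2(signal + 5) and 274 without the 25% of regions with the lowest mean. Thresholds of 0.8 and 1.5 log2 gave 1451 and 96, and one midway between 1 and 1.5 gave 302. Centring on the unchanged class gave 604 and leaving out repeated sequence 836. The I+B minus Bud difference in Ad-IκBαΔN, which the choice of members sets to at least 1, had a median of 0.61 under quantile normalization, 0.63 with steps divided out and 0.86 on log2(signal + 5). Among named members other than those next to a threshold, it was below 1 at 41 and at least 1 at 13 under quantile normalization. The counts were the same with steps divided out. It was below 1 at 15 of them when re-centred and at 11 when centred on the unchanged class. I+B minus NS in Ad-IκBαΔN was -0.57, -0.58 and -1.02 when re-centred, quantile normalized or centred on the unchanged class, and 0.37 with steps divided out. In these first 3 settings, then, the members lay below untreated cells relative to the other regions. I+B minus Bud in Ad-GFP had a median of 2.41 re-centred, 1.38 quantile normalized and 1.92 with steps divided out. Bud minus NS in Ad-IκBαΔN was -1.67, -1.24 and -2.16 under the first 3, again relative to the other regions. The I+B difference between viruses was -0.87 re-centred, -0.90 quantile normalized and -0.80 with steps divided out. With steps divided out, the Ad-GFP difference was -0.19 at PLEKHG4B, -0.11 at PARD6G, -0.0786 at MED9, -0.25 at MFAP2 and -0.11 at FAM50B. With 2 mismatches allowed, the GRE was found in 19.2% of members, 21.6% of gained regions not kept and 42.3% of all regions. With none allowed, the shares were 0.466%, 0.303% and 1.61%. The causes were not tested. No paired analysis was possible because the table holds 1 value per group, and leaving out each replicate was not run for the same reason.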

Other observations

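Under the deposited scale and all 4 other scalings, 50 regions met the 3 criteria, and 266 did so under the deposited scale only. Of the 50, 26 had a κB match and 36 were linked to a gene. Their median signal in Ad-IκBαΔN was 7.62 untreated, 3.71 with Bud and 15.1 with I+B, and 62.5 with I+B in Ad-GFP. They include regions within 1 kb of the start of FLOT1, a lipid raft protein, of NANOS3, an RNA-binding protein of germ cells, of INO80C, a subunit of the INO80 chromatin remodeller, and of CREB1, the cyclic AMP response factor. At CREB1 (chr2:207529428-207529827) Ad-IκBαΔN cells had 8.81 untreated, 6.60 with Bud and 23.4 with I+B, and at FLOT1 (chr6:30742733-30743132) 7.91, 5.60 and 23.9. A region nearest NR3C1, the gene of GR itself, though farther than 100 kb from it (chr5:143576618-143577017), had 11.2, 6.21 and 20.1. Also among the 50 were the intron of CD44 and regions linked to TNS3, a tensin of focal adhesions, and RAC2, a small GTPase. The genes named here were picked after their values were seen.

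By chromosome, kept regions were between 4.17% (chromosome 13) and 11.6% (chromosome 6, 72 members) of all regions. As a share of gained regions, they ran from 12.5% on chromosome 21 to 28.7% on chromosome 4. No test was applied to these shares.

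Members near a TSS with a high I+B signal in Ad-IκBαΔN included that of SIRT2, a deacetylase (chr19:38899748-38900147, 2 κB matches), with 18.6 for Bud and 40.3 for I+B. In Ad-GFP its I+B signal was 179. It, too, was chosen after its values were seen.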
